A study of Rattus norvegicus with 9 samples.

Results

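The genes of mitosis were followed by symbol, as a list of 44 that spans entry into mitosis, the spindle checkpoint, kinetochores, the anaphase-promoting complex, spindle motors, cytokinesis, condensin and the factors that transcribe these genes. Of these, 42 matched a row among the 32792 genes of the deposited table. Ccnb2 (cyclin B2) and the entry written Ube2c-like matched no row and were not analysed here. The libraries, 3 per group, were made from rat aortic smooth muscle cells in culture. Cells with an empty vector were given either bovine serum albumin (BSA) or advanced glycation end products (AGEs), proteins modified by sugars, at 200 µg/mL for 24 h. A further group was transfected to overexpress cathepsin D (CTSD), a lysosomal protease, and was given AGEs. All cells were therefore transfected. CTSD cells given BSA, and cells without a vector, were not analysed here, so CTSD was compared under AGEs only. The labels do not say that the libraries of a group are separate cultures, so the spread on which the p-values rest may be technical.

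Mitosis starts when the kinase CDK1, bound to cyclin A or B, is switched on by CDC25 phosphatases. PLK1 and the Aurora kinases then build the spindle, condensin compacts the chromosomes, and the checkpoint proteins hold back the activator CDC20 until every kinetochore is attached. CDC20 then directs the anaphase-promoting complex (APC/C), a ubiquitin ligase, against cyclin B and securin, and the cell divides. Most of these genes are transcribed late in the cell cycle, when the MuvB proteins (LIN9 among them) join B-MYB and FOXM1 at promoters that carry a cell cycle homology region (CHR) and often CCAAT boxes. Smooth muscle cells of the artery wall are mostly quiescent and enter the cycle in culture or after injury. In RNA from a whole culture, fewer dividing cells and less mitotic RNA in each dividing cell cannot be told apart.

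Promoters of 37 of the 44 listed genes were in the RefSeq table of rat promoters (build GRCr8, 250 bases before to 50 after the start). The 8 printed here belong to genes that changed below and to Cdk1 and Ccnb1, the pair that drives entry. Each is the 100 bases before the start, 5′ to 3′ in the direction of the gene. Capitals mark CCAAT, the letters that NF-Y binds, which read ATTGG where the box lies on the other strand. They also mark CHR-type motifs, either TTTGAA, which reads TTCAAA where it lies on the other strand, or the variant TTCGAA.
Cdc20, chr5:137255800-137255899, minus strand: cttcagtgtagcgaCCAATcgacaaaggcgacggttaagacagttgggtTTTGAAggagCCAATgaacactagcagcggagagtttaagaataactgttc
Plk1, chr1:186147558-186147657, plus strand: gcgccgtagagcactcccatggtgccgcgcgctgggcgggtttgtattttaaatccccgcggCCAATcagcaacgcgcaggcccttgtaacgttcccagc
Kif22, chr1:191080879-191080978, minus strand: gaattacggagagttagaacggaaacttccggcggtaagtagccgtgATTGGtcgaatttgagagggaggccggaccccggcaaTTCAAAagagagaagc
Bub3, chr1:195760432-195760531, plus strand: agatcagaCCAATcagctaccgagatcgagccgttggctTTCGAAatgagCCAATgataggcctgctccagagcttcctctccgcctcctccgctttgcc
Cdc25b, chr3:138860073-138860172, plus strand: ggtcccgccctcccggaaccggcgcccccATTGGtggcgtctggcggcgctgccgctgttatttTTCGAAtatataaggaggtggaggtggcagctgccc
Lin9, chr13:94906703-94906802, plus strand: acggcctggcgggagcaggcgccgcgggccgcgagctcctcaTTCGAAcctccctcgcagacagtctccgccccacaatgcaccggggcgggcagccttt
Cdk1, chr20:19265193-19265292, plus strand: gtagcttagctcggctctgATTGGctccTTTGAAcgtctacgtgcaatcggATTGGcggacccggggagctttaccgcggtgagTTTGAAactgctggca
Ccnb1, chr2:33655226-33655325, minus strand: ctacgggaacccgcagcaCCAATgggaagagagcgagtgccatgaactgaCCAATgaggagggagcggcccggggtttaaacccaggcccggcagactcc

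On either strand of the full 300-base window, TTTGAA was in 26 of the 37 promoters (70.3%), against 18.1% of all 27457 promoters in the table and 10.8% of the 6236 that belong to tested genes. TTCGAA, which is its own reverse complement, was in 4 (10.8%), against 1.77% and 2.12%. CCAAT was in 26 (70.3%), against 37.7% and 38.7%. Both a CCAAT and a CHR-type motif were in 22 (59.5%), against 7.83% of all promoters and 5.48% of those of tested genes. The CHR-type matches lay near the start, with a median first base at -33.5, and 31 of 36 began at -100 or later. The 56 CCAAT matches began at a median of -96, and 1 of them overlapped a CHR-type match. In Plk1 the TTTGAA began at base 7 from the start, outside the stretch shown. Lin9 also held a TTTGAA, from base -3 to base 3, which runs past the stretch shown and is not marked. Aurka, Bub1, Kif2c, Mybl2 and Ncaph held none of these letters in the window. A match describes the letters and is not evidence of a bound site.

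Each library held 4492416 to 5341647 fragments assigned to genes, worked out from whole steps in the deposited FPKM (fragments divided by gene model length and by the library's assigned total). At this depth 3 fragments on a gene of 1 kilobase amount to 0.562 to 0.668 FPKM. Ctsd itself was 13.0 ± 1.45 FPKM with BSA, 13.9 ± 0.808 with AGEs and 199 ± 3.88 with CTSD (SD, n = 3), so the CTSD libraries had the highest level. Of 8 smooth muscle markers, Tpm2, Smtn, Acta2 and Tagln were at 6.72 FPKM or higher throughout, Myh11, Cnn1 and Des at 1.34 FPKM or lower, and Myocd was listed at 0. Their summed level was 135 to 154 FPKM with BSA, 114 to 123 with AGEs and 196 to 199.7 with CTSD. This marker sum moved with both treatments, and its part in the results below was not tested. With AGEs mainly Tpm2 moved, from a mean of 106 to 80.2 FPKM. Acta2 (8.45 with BSA and 8.25 with AGEs) and Tagln (12.1 and 11.3) stayed close. With CTSD, Tpm2 (132), Acta2 (22.8) and Tagln (22.3) were all higher. Smtn stayed at 17.5 to 20.8 FPKM in all libraries. Endothelial, macrophage and epithelial marker sums stayed at 1.76 FPKM or lower in every library, with Cdh5, Kdr, Ptprc, Adgre1, Cd14, Epcam and Krt8 listed at 0. The fibroblast sum was 1.88 to 2.71 FPKM. The third AGEs library stood apart from its group, since its deviations correlated with gene length (rho 0.27 across tested genes) and those of the second AGEs library did the reverse (rho -0.23).

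Of the 42 genes with a row, 34 had at least 1 FPKM in at least 3 libraries and were tested. The other 8 came from several roles, with 3 of them kinetochore genes. Bub1b (checkpoint kinase BUBR1), Nuf2 (an NDC80 complex subunit) and Pttg1 (securin, the inhibitor of separase) were listed at 0 in all 9 libraries. Cenpf and Birc5 (survivin, of the chromosomal passenger complex) had 1 fragment over all 9 libraries each. Cenpe, a kinetochore motor, had 14 in total, the proliferation marker Mki67 had 24, and Cdc25c, a CDK1-activating phosphatase, had 55. These 5 genes had a highest value of 12 fragments in any library, so no difference between groups could be detected in them. The untested genes had gene models of 873 to 10069 bases (median 3697), and the tested ones of 1220 to 6835 (median 2935).

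Levels of the tested genes covered a wide range, and Cdc20 stood far above the rest. Averaged over the 9 libraries, Cdc20 was at 728 FPKM, in the 98.0 percentile of all tested genes. Ccna2 (cyclin A2) followed at 138 FPKM, Bub3 (a checkpoint protein) at 102, Plk1 at 92.1 and Cdk1 at 89.7. Racgap1, a subunit of centralspindlin, was at 63.1 FPKM and the B-MYB gene Mybl2 at 48.7. In every group the libraries of Cdc20 and Ccna2 did not overlap. Below them, the libraries of Bub3 and Cdk1 overlapped with BSA and with CTSD, and those of Cdk1 and Plk1 overlapped with AGEs. At the lower end, Espl1 (separase) was at 0.971 FPKM, Ncapg (a condensin subunit) at 1.14, Ttk (the checkpoint kinase MPS1) at 1.15 and Ndc80 at 1.28. Over the 42 genes, 3 means exceeded 100 FPKM, 18 were of 10 to 100, 12 of 1 to 10 and 9 below 1. The median of the tested genes of mitosis was 12.9 FPKM, against 13.3 for all tested genes.

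**Figure D1:**
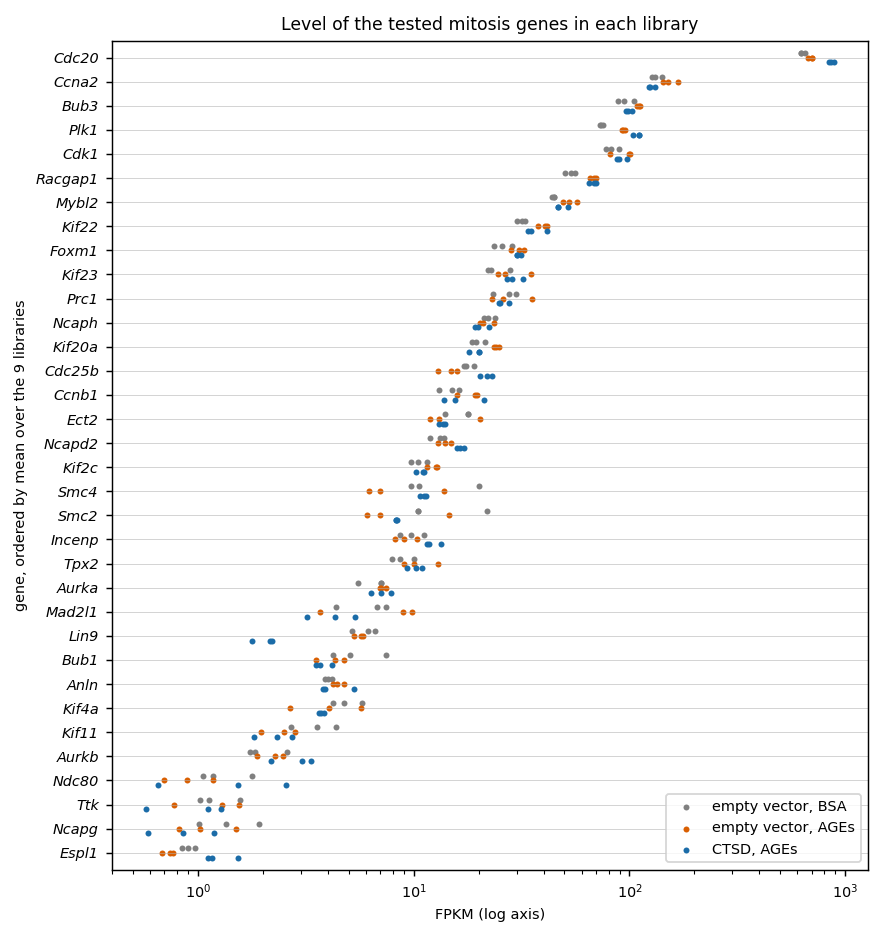
FPKM of the 34 tested genes of mitosis in each of the 9 libraries, on a log axis, with genes ordered by mean level and colours for the 3 groups. Cdc20 lies above all others with a mean of 728 FPKM, and Espl1 is lowest at 0.971 FPKM.

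The first question was what AGEs did in empty-vector cells. Of the 34 tested genes, 7 rose and none fell at an adjusted p under 0.05 (limma over all 8532 tested genes, Benjamini-Hochberg). This was 20.6% of them, against 15.0% of all tested genes, of which 6.05% rose and 8.92% fell. The genes that rose act in entry (Plk1), the checkpoint and anaphase (Bub3, Cdc20), chromosome movement (Kif22), cytokinesis (Racgap1, Kif20a) and transcription (Mybl2). Falls were absent also by limma voom on recovered fragments, and 1 gene was lower at an unadjusted p under 0.05. The rises were small, 1.09-fold to 1.28-fold in mean FPKM.

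Plk1 (ENSRNOG00000018815, chromosome 1, 192115966 to 192125989), the kinase that drives spindle formation and mitotic exit, was at 75.2, 73.4 and 74.0 FPKM with BSA and 94.9, 92.8 and 93.2 with AGEs. All AGEs libraries were above all BSA libraries, by a wide margin against the spread. The log2 fold change was 0.33 (SE 0.05, adjusted p = 0.00152). Racgap1 (ENSRNOG00000049033, chromosome 7, 141277312 to 141307233), which with Kif23 forms the centralspindlin that marks the cleavage plane, was at 50.2, 53.7 and 55.9 FPKM with BSA and 68.4, 70.2 and 65.5 with AGEs. Its log2 fold change was 0.35 (SE 0.06, adjusted p = 0.00412). These groups did not overlap either, and Plk1 and Racgap1 were the genes whose call held in all 19 alternatives.

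Cdc20 (ENSRNOG00000028415, chromosome 5, 137260739 to 137265015) was at 624, 621 and 649.9 FPKM with BSA and 698, 698 and 673.5 with AGEs. The groups did not overlap, although the third libraries lay closest to each other, and the log2 fold change was 0.13 (SE 0.04, adjusted p = 0.0422). The other calls also lay close to the threshold. Kif22, a chromokinesin that pushes chromosome arms to the spindle equator, had a mean of 31.5 ± 1.30 FPKM with BSA and 40.0 ± 2.02 with AGEs (log2 fold change 0.33, adjusted p = 0.0233). Mybl2 had 44.5 ± 0.472 and 53.0 ± 3.81 FPKM (0.25, adjusted p = 0.0384). Kif20a, a kinesin of the central spindle, had 19.8 ± 1.43 and 24.1 ± 0.614 (0.28, adjusted p = 0.0462). Bub3 had 95.8 ± 7.98 and 110.3 ± 2.09 (0.20, adjusted p = 0.0485). Libraries with the same replicate number deviated together in these 2 groups, and with replicate as a block the adjusted p was 0.0666 for Cdc20, 0.072 for Kif20a and 0.0569 for Bub3. Leaving out 1 library ended the calls of Kif22 (0.0786 without BSA library 3), Mybl2 (0.122 without AGEs library 2), Cdc20 (0.132 without AGEs library 1), Kif20a (0.137 without BSA library 2) and Bub3 (0.156 without BSA library 3).

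Libraries of the 2 groups did not overlap in 10 genes that were higher and 2 that were lower with AGEs, against 12.8% and 19.8% of all tested genes. Together these were 35.3% of the mitosis genes, near the 32.5% of all tested genes. Beside the called genes, Ccna2 (0.20, adjusted p = 0.0647), Kif2c (0.21, adjusted p = 0.177) and Anln (0.12, adjusted p = 0.613) were higher without overlap. The 2 lower ones were Cdc25b and Espl1, and neither was called. Cdc25b, the phosphatase that starts CDK1 activation at the centrosome, was at 17.6, 18.9 and 17.1 FPKM with BSA and 15.8, 12.9 and 14.9 with AGEs (-0.28, adjusted p = 0.0700). Cdk1 was at 82.4, 89.7 and 78.3 FPKM with BSA and 99.8, 101 and 81.5 with AGEs, overlapping in the third AGEs library. Over the 34 genes the log2 fold changes ran from -0.59 (Smc2) to 0.35 (Racgap1) with a median of 0.11, and 20 lay above 0. The median over all tested genes was -0.06. Among all called genes 40.4% rose, and this share was 58.9% under median-of-ratios scaling and 51.7% after quantile normalization.

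**Figure D2:**
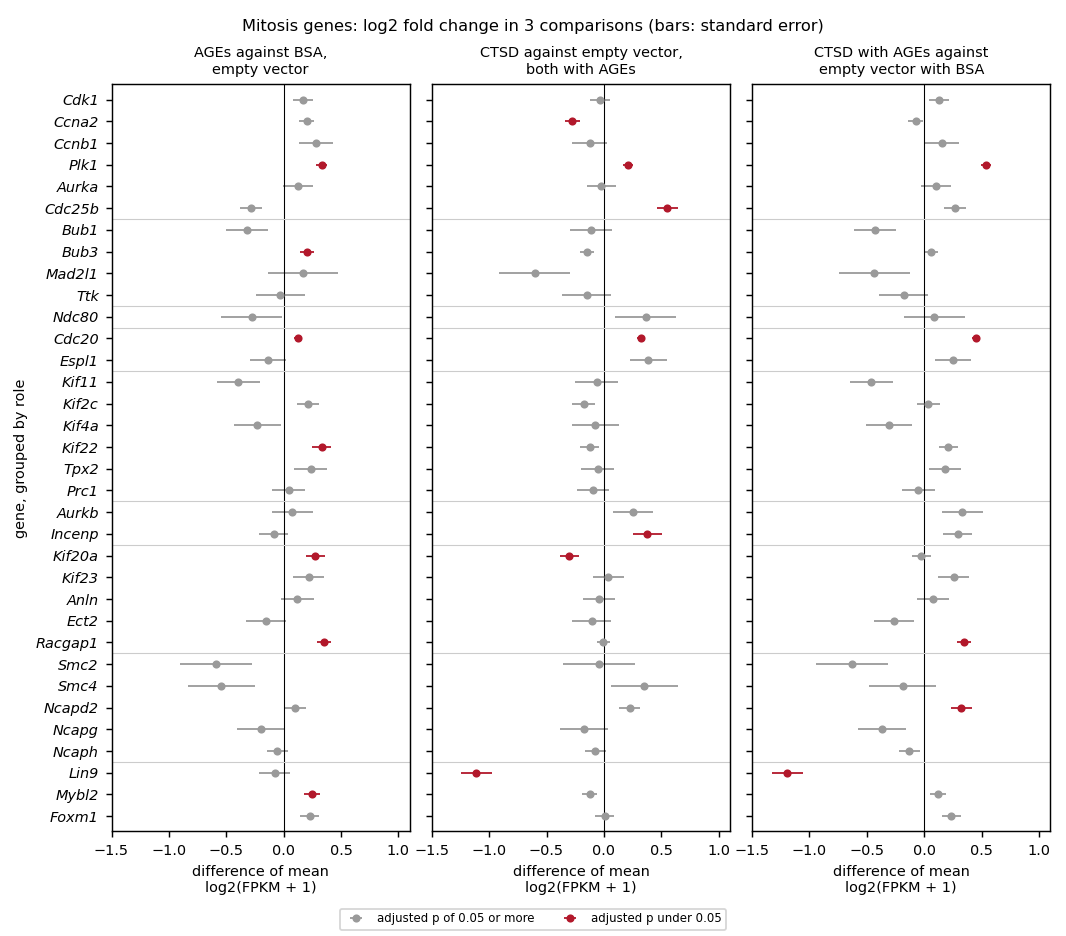
Log2 fold change with its SE for each of the 34 tested genes in the 3 comparisons, grouped by role, with red points for called genes and gray points for the rest. The rises with AGEs are small, while Lin9 with CTSD lies far to the left of every other gene.

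The second question was what CTSD did in cells given AGEs. Cdc20, Cdc25b, Plk1 and Incenp rose, 4 of 34, and Lin9, Ccna2 and Kif20a fell, 3 of 34 (limma, Benjamini-Hochberg over all tested genes). Of all tested genes 18.6% rose and 12.0% fell, so the share of mitosis genes called, 20.6%, was below the 30.7% of all genes. The calls of Cdc20, Lin9, Cdc25b, Plk1 and Ccna2 held in all alternatives run on them. Limma voom on recovered fragments also called Espl1 (adjusted p = 0.0161) and Ncapd2 (adjusted p = 0.0437) higher, which limma on FPKM did not (0.0870 and 0.0904). Espl1 had 24 to 55 fragments per library.

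Lin9 (ENSRNOG00000023304, chromosome 13, 98924962 to 98967735), a core subunit of the MuvB complex, changed most. It was at 5.69, 5.30 and 5.80 FPKM with the empty vector and AGEs and at 2.17, 1.79 and 2.21 with CTSD. The groups were far apart, at 0.367 of the empty-vector mean (log2 fold change -1.11, SE 0.13, adjusted p = 0.000197). The gene is lowly expressed, with 15 to 19 fragments in each CTSD library and 44 to 52 in each empty-vector AGEs library. The remaining MuvB core genes, named after their values were seen, were not called by limma. The log2 fold change was -0.02 for Lin37 (adjusted p = 0.933), -0.18 for Lin52 (0.567), -0.20 for Lin54 (0.331) and -0.44 for Rbbp4 (0.0653). With limma voom on recovered fragments Rbbp4 was called lower (adjusted p = 0.0160) and the other 3 were not. Of the partners of MuvB, Mybl2 was at -0.12 (adjusted p = 0.204) and Foxm1 at 0.01 (adjusted p = 0.957). Among genes that MuvB with its partners is known to activate, Cdc20 and Plk1 were called higher, and Ccna2 and Kif20a lower. Others were not called, such as Cdk1 (-0.04), Ccnb1 (-0.13), Aurka (-0.02) and Tpx2 (-0.06). Of all 34 tested mitosis genes 20.6% were called, below the 30.7% of all tested genes.

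Cdc20 was at 886, 861 and 844 FPKM with CTSD, all above the 673.5 to 698 with the empty vector (log2 fold change 0.32, SE 0.04, adjusted p = 0.000131). Plk1 was at 111, 110.4 and 104 FPKM, above the 92.8 to 94.9 of the empty-vector libraries (0.21, SE 0.05, adjusted p = 0.00612). Both genes thus rose with AGEs and rose again when CTSD was added. The call of Cdc20 with AGEs was lost in 11 of 19 alternatives, however, while that of Plk1 held in all. The 2 comparisons share the empty-vector AGEs libraries and are not independent. Cdc25b went from 15.8, 12.9 and 14.9 FPKM to 23.1, 20.4 and 21.9 (ENSRNOG00000021248, chromosome 3, 123731539 to 123741339). Its groups did not overlap, and the mean was 1.50-fold higher with CTSD (0.55, SE 0.09, adjusted p = 0.00148). Incenp, the scaffold of the chromosomal passenger complex, was at 9.01, 8.16 and 10.4 FPKM and then 11.8, 13.3 and 11.5 (0.38, SE 0.12, adjusted p = 0.0411). Its call was lost in 10 alternatives, with an adjusted p of 0.133 without CTSD library 2.

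Ccna2 (ENSRNOG00000015423, chromosome 2, 123275881 to 123282214) fell from 150.3, 143 and 168 FPKM to 124, 132 and 124 (log2 fold change -0.28, SE 0.07, adjusted p = 0.0093). Its CTSD libraries lay within the range of the BSA libraries, 127 to 142 FPKM, or just below it. Kif20a (ENSRNOG00000024428, chromosome 18, 27424328 to 27432814) went from 24.7, 23.5 and 24.1 FPKM to 18.0, 20.0 and 20.2, also without overlap (-0.30, SE 0.08, adjusted p = 0.0172, and 0.0656 without CTSD library 1). Cdk1 was at 97.0, 87.8 and 89.4 FPKM with CTSD, inside its range with AGEs alone (-0.04). Its partner Ccnb1 (cyclin B1) was at 16.0, 19.6 and 19.2 FPKM with AGEs and 21.2, 15.5 and 13.9 with CTSD, and these overlapped as well.

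**Figure D3:**
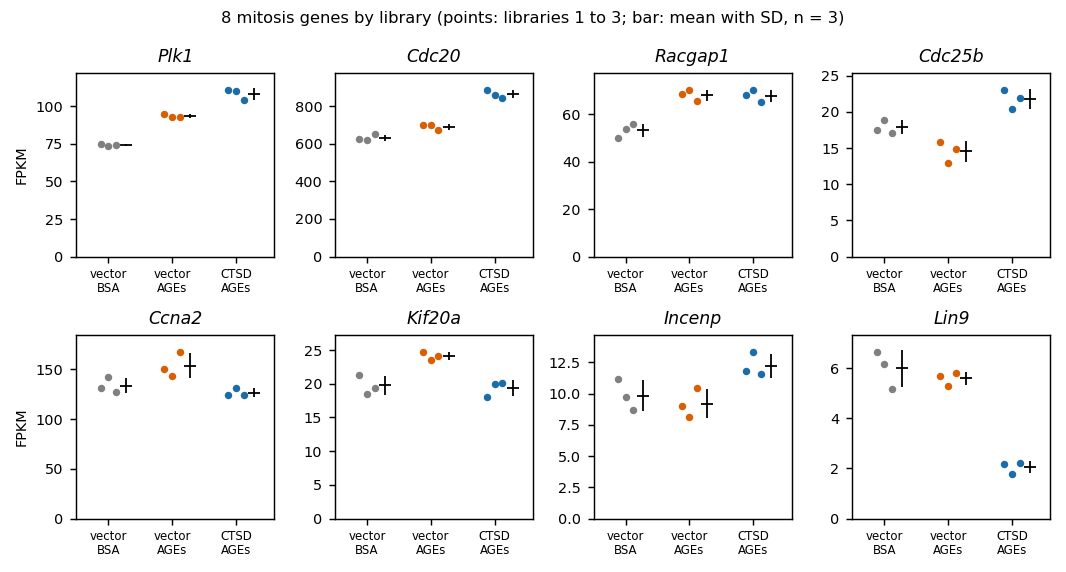
FPKM per library of selected genes of mitosis in the 3 groups, with points for libraries and crosses for group means with SD (n = 3), each axis starting at 0. Plk1 and Cdc20 rise from BSA to AGEs to CTSD, Lin9 drops with CTSD, and Ccna2 and Kif20a are highest with AGEs.

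By role, the spindle motors and assembly factors (Kif11, Kif2c, Kif4a, Kif22, Tpx2, Prc1) all had log2 fold changes below 0 with CTSD, from -0.18 to -0.06, and limma and voom called none, also at an unadjusted p under 0.05. This common sign was lost without the third libraries of both empty-vector groups, where Kif11 (0.01), Kif4a (0.14), Tpx2 (0.08) and Prc1 (0.08) lay above 0. The 4 tested checkpoint genes were below 0 too, from -0.60 (Mad2l1) to -0.11, without a call by either tool and with 1 at an unadjusted p under 0.05. Over the 34 genes 23 were below 0, and 16 without those libraries, with a median of -0.06 and a range of -1.11 (Lin9) to 0.55 (Cdc25b), beside a median of 0.05 over all tested genes. Libraries did not overlap in 6 higher and 5 lower genes, against 26.2% and 17.7% of all tested genes, which is 32.4% of the mitosis genes and 43.9% of all. Among all called genes 60.8% rose, and 49.0% under median-of-ratios scaling.

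CTSD cells with AGEs were also set beside empty-vector cells with BSA, a comparison that combines both treatments and shares libraries with each of the others. Cdc20, Plk1, Racgap1 and Ncapd2 rose and Lin9 fell, 4 and 1 of 34, against 16.3% and 16.3% of all tested genes. The share called either way was 14.7%, below the 32.6% of all tested genes. Plk1 was 1.46-fold higher (log2 fold change 0.54, adjusted p = 4.75e-05) and Cdc20 1.37-fold higher (0.45, adjusted p = 3.65e-05). Racgap1 was at 68.2, 70.4 and 65.1 FPKM with CTSD, where AGEs alone had put it (0.35 against BSA, adjusted p = 0.00181). Lin9 was at 0.343 of its BSA mean (-1.19, adjusted p = 0.000188). Ncapd2, a condensin I subunit, was at 13.2, 11.9 and 13.8 FPKM with BSA and 16.4, 17.2 and 15.8 with CTSD (0.32, adjusted p = 0.0219, and 0.0763 without BSA library 2). Cdc25b (0.27, adjusted p = 0.0501) and Foxm1 (0.24, adjusted p = 0.0508) narrowly missed the threshold. Libraries did not overlap in 10 higher and 4 lower genes, against 24.0% and 24.8% of all tested genes. That is 41.2% of the mitosis genes and 48.8% of all tested genes. The median was 0.08, beside 0.00 over all tested genes.

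The condensin core subunits Smc2 and Smc4, the paired ATPases that fold chromosomes, split the libraries differently. Smc2 was at 10.5, 10.4 and 22.0 FPKM with BSA, 6.11, 6.99 and 14.6 with AGEs and 8.29, 8.40 and 8.29 with CTSD. Smc4 was at 10.6, 9.72 and 20.0 FPKM with BSA, 6.20, 7.00 and 13.8 with AGEs and 11.2, 11.4 and 10.8 with CTSD. In both empty-vector groups the third library was thus about as high again as the others, 2.10 and 2.22 times their mean for Smc2 and 1.97 and 2.09 times for Smc4. With CTSD the third library was at 0.99 and 0.95 times the others. Mad2l1, a checkpoint protein, went the other way, with the third library at 0.62, 0.39 and 0.66 times the mean of the others with BSA, AGEs and CTSD.

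AGEs against BSA gave Smc2 a log2 fold change of -0.59 (adjusted p = 0.239) and Smc4 of -0.54 (adjusted p = 0.240). Without the third libraries of both empty-vector groups, a choice made after seeing the data, the fold changes were nearly the same, -0.60 and -0.56, and the adjusted p was 0.0159 and 0.0206. Smc4 with CTSD against AGEs went from 0.35 (adjusted p = 0.400) to 0.67 (adjusted p = 0.00309) in the same way. In the further cohesin and condensin list, some genes of cohesin and its regulators, and Top2a, were high in the third libraries of the empty-vector groups too. The third library was over 1.5 times the others in 3 of 14 with BSA and 8 of 14 with AGEs. Over the 14 tested genes of that list, the ratio of the third library to the others had a median of 1.23 with BSA, 1.64 with AGEs and 1.06 with CTSD. It was highest for the cohesin loader Nipbl (1.88, 2.30 and 1.06), and 1.55, 1.99 and 1.08 for Top2a, the topoisomerase that untangles sister chromatids. It was 0.85, 1.02 and 1.07 for the cohesin subunit Rad21 and 0.99, 0.96 and 1.06 for the condensin subunit Ncaph2, so these did not share the pattern. Gene length moved with this difference. Across the 34 genes, the log2 difference of the third library from the others had a rank correlation with gene length of 0.54 with BSA, 0.46 with AGEs and 0.07 with CTSD. Over all tested genes, the deviation of the third library correlated with gene length at rho 0.090 with BSA, 0.27 with AGEs and 0.095 with CTSD. The BSA and CTSD libraries were thus alike there, unlike in the 34 genes. The 34 points share their libraries, and the part of length in the result was not tested further.

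**Figure D4:**
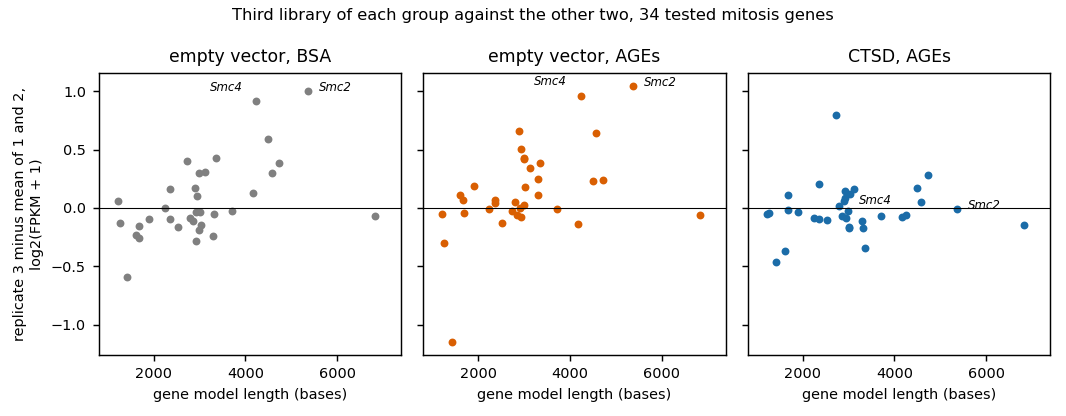
Log2 difference between the third library and the mean of the other libraries of its group, plotted against gene model length in bases for the 34 tested genes, 1 panel per group. Smc2 and Smc4 lie near 1 with BSA and AGEs and near 0 with CTSD.

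The wider machinery was covered by 8 lists of 156 further genes, of which 150 matched a row, 24 rows were listed at 0 and 98 genes were tested. With AGEs 12 (12.2%) rose and 11 (11.2%) fell, against 6.05% and 8.92% of all tested genes, with a median log2 fold change of -0.08 beside -0.06. With CTSD against AGEs 13 (13.3%) rose and 17 (17.3%) fell, against 18.6% and 12.0%, with a median of -0.01 beside 0.05. With CTSD against BSA 20 (20.4%) rose and 16 (16.3%) fell, against 16.3% and 16.3%, with a median of -0.07 beside 0.00. The counts of single lists below are small and stand against these same shares of all tested genes. Kinetochore genes were the least measured, since 17 of 34 matched genes were listed at 0 and 8 could be tested.

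Of the 15 tested genes of the APC/C list, 2 rose with AGEs, and both are ubiquitin-conjugating enzymes that work with Cdc20. Ube2c went from 327 ± 13.2 to 396 ± 14.0 FPKM (log2 fold change 0.27, adjusted p = 0.00338), and Ube2s from 117 ± 4.60 to 135 ± 8.13 (0.20, adjusted p = 0.0312, and 0.103 without BSA library 2). The scaffold subunit Anapc1 fell (-0.35, adjusted p = 0.00467, and 0.299 once a trend with gene length was removed). With CTSD, 3 core APC/C subunits fell and none of the list rose by limma or voom, with 3 higher at an unadjusted p under 0.05. Those that fell were Anapc4 (-0.67, adjusted p = 0.000214), Cdc23 (-0.30, adjusted p = 0.00614) and Cdc16 (-0.27, adjusted p = 0.0117).

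Of the 10 tested entry regulators, 3 rose and 2 fell with AGEs, and 3 rose and 2 fell with CTSD. Ensa, an inhibitor of the phosphatase that opposes CDK1, moved in opposite directions. It went from 47.0 ± 4.31 FPKM with BSA to 34.5 ± 2.20 with AGEs (-0.43, adjusted p = 0.0056). With CTSD it was at 61.1 ± 2.66 FPKM (0.81, adjusted p = 5.5e-05 against AGEs). Both comparisons use the empty-vector AGEs libraries, so error in those libraries alone could give opposite moves. This limit also holds for Kif20a, Rbl2 and Cenpp. Ppp1cc, a phosphatase catalytic subunit, rose with AGEs (0.24, adjusted p = 0.00301), and Cdc25a fell (-0.27, adjusted p = 0.0342, and 0.0536 with the replicate block). With CTSD the CDK-binding protein gene Cks1b rose (0.30, adjusted p = 0.00235) and the kinase gene Vrk1 fell (-0.45, adjusted p = 0.00203).

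Among 18 spindle and centrosome genes, 2 rose with AGEs, Kif18b, a microtubule-depolymerising kinesin (0.33, adjusted p = 0.00323), and Tubg1, gamma-tubulin (0.22, adjusted p = 0.00415). Ckap5 fell (-0.64, adjusted p = 0.0391, and 0.133 without BSA library 3). With CTSD 5 rose and 2 fell, the centrosomal kinase Nek2 rising by 0.60 (adjusted p = 0.0028) and the microtubule-binding Clasp2 falling (-0.58, adjusted p = 0.00433). Haus7, an augmin subunit, rose as well (0.45, adjusted p = 0.00458). Of the 8 cytokinesis and passenger genes, 3 rose and 2 fell with AGEs, led by Septin9 (0.61, adjusted p = 0.00303) and the citron kinase gene Cit (-0.62, adjusted p = 0.00937). Septin2 fell with AGEs (-0.27, adjusted p = 0.0269, and 0.101 without AGEs library 1), and 2 fell with CTSD, Septin2 (-0.35, adjusted p = 0.00312) and Pdcd6ip (-0.21, adjusted p = 0.0211, and 0.0757 without CTSD library 3). In the kinetochore list Cenpp rose with AGEs (0.42, adjusted p = 0.0345, and 0.123 without AGEs library 1), although voom called no rise, and the checkpoint gene Mad1l1 fell (-0.42, adjusted p = 0.0241, and 0.0877 without BSA library 1). With CTSD 3 fell: Zw10 (-0.54, adjusted p = 0.0249, and 0.0744 without AGEs library 2), Cenpp (-0.37, adjusted p = 0.0316, and 0.113 without AGEs library 1) and Trip13, which remodels checkpoint proteins (-0.41, adjusted p = 0.00235). The call of Trip13 alone held in all alternatives.

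Of 14 genes of MuvB, the DREAM repressor and its DNA-binding partners, 1 rose and 3 fell with AGEs. Rbl2, the pocket protein of DREAM that represses these genes in resting cells, fell from 12.2 ± 1.20 to 6.35 ± 1.18 FPKM (-0.86, adjusted p = 0.00313). Tfdp2, a partner of E2F (-0.54, adjusted p = 0.00763), and the NF-Y subunit gene Nfya (-0.49, adjusted p = 0.0294, and 0.103 without AGEs library 1) fell too. Rbl2 was at 9.38 ± 0.685 FPKM with CTSD (0.51 against AGEs, adjusted p = 0.0179, and 0.0626 without CTSD library 1). With CTSD 1 rose and 4 fell, and Nfyc, a subunit of the CCAAT-binding factor NF-Y, went from 103 ± 4.06 to 76.0 ± 2.57 FPKM (-0.44, adjusted p = 0.000185). The pocket protein gene Rbl1 changed most in this list (-0.55, adjusted p = 0.0413), a call lost in 11 alternatives. Of 11 tested cyclins and inhibitors of the phase before DNA synthesis, 1 fell with AGEs, Ccnd2 (-0.79, adjusted p = 0.0455, and 0.138 without BSA library 1). With CTSD 3 rose, the D cyclins Ccnd3 (0.27, adjusted p = 0.00477) and Ccnd1 (0.32, adjusted p = 0.00922) and the CDK inhibitor Cdkn2c (0.41, adjusted p = 0.0241, and 0.0831 without CTSD library 1). In the cohesin and condensin list limma and voom called none with AGEs, with 1 higher and 2 lower at an unadjusted p under 0.05, and with CTSD Ncaph2 rose (0.25, adjusted p = 0.00551) and Stag1 fell (-0.67, adjusted p = 0.0258, and 0.0792 without CTSD library 2).

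With CTSD against BSA, the genes of these lists that changed most were as follows, as log2 fold changes by limma. Vrk1 fell (-0.61, adjusted p = 0.000462), and Ensa (0.37, adjusted p = 0.00533) and Ppp1cc (0.32, adjusted p = 0.000271) rose. In the APC/C list 5 rose and 3 fell of 15 tested. Those that changed most were Anapc4 (-0.89, adjusted p = 6.54e-05) and Cdc16 (-0.38, adjusted p = 0.0018), which fell, and Anapc16, which rose (0.62, adjusted p = 0.0317, lost in 7 alternatives). Of the 18 tested spindle genes 6 rose and 4 fell, although those that changed most all fell. They were Clasp2 (-0.83, adjusted p = 0.000701), Ckap5 (-0.71, adjusted p = 0.0132) and Kif15 (-0.61, adjusted p = 0.0348). Without BSA library 3 the adjusted p was 0.0508 for Ckap5 and 0.116 for Kif15. Septin9 rose (0.69, adjusted p = 0.000666), Septin2 fell (-0.62, adjusted p = 0.000169) and Rhoa rose (0.13, adjusted p = 0.0121, and 0.0512 without CTSD library 2). The cohesin genes Stag1 (-1.02, adjusted p = 0.00335) and Pds5a (-0.97, adjusted p = 0.0117) fell and Ncaph2 rose (0.28, adjusted p = 0.00291). Tfdp2 (-0.53, adjusted p = 0.00389), Nfyb (-0.45, adjusted p = 0.007) and Tfdp1 (-0.23, adjusted p = 0.0049) fell. Cdkn2c (0.62, adjusted p = 0.00291) and Ccnd3 (0.32, adjusted p = 0.00195) rose and Cdk6 fell (-0.54, adjusted p = 0.0324, and 0.0990 without CTSD library 1).

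Set against the promoters, 6 of the 7 genes that rose with AGEs had a promoter in the table, 4 of them with a CHR-type motif and 5 with CCAAT. All 3 genes with a promoter that rose with CTSD (Cdc20, Plk1 and Cdc25b) had both. Of the 2 that fell and had a promoter, 1 had each. These counts stand beside 75.7% of the 37 promoters with a CHR-type motif and 70.3% with CCAAT, and are given as a description. For the 28 promoters of tested mitosis genes these shares were 71.4% and 67.9%.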

How the data were processed

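The deposited table holds FPKM per gene, computed by the authors per the labels' protocols after poly-T capture, a NEBNext Ultra kit and 150-base read pairs on an Illumina NovaSeq. The sources used here name no aligner or annotation. Per the submitters' processing notes the build was mm10, a mouse build, while the deposited identifiers and positions are those of rat, so positions are given as deposited with no build. Multiplied by gene length, FPKM gave whole fragments and hence depth: per library, 99.1% to 99.4% of values below 200 fragments were whole to within 0.1. Intervals of counting are not given, since p-values rest on replicates.

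The genes and lists were chosen with earlier results of these data known, and no pattern here is independent of them. The 8532 genes that reached 1 FPKM in 3 or more of the 9 libraries were fitted as log2(FPKM + 1) with limma 3.58.1 in R 4.3.3, with 1 mean per group and a variance trend; fold changes of low genes are understated on this scale. Benjamini-Hochberg adjustment ran over all tested genes per comparison, and calls were made under 0.05, two-sided. Folds are ratios of mean FPKM. All listed genes are described, and called ones are given with tests; of each further list up to 3 called genes with the largest change are named per comparison. Residuals of same-numbered BSA and AGEs libraries correlated at 0.1354, 0.1417 and 0.152, over the 0.1 taken to show pairing, so the replicate block is given where it ended a call. Alternatives were scaling by median of ratios or quantiles, a pseudocount of 0.1, dropping the filter or raising it to a mean of 5 FPKM, the block, 2 groups alone, voom on recovered fragments and leaving out each library. Leaving out the third libraries of both empty-vector groups and removing a trend with gene length were added after seeing the data. The fit was also run on simulated counts, with 1 fixed dispersion for all genes and no length trend, outlying library or pairing. That run cannot show how the fit behaves under those, and its outcome is not used here. Promoters are from RefSeq (GRCr8), searched on both strands. Tables and figures used python 3.11.15, pandas 2.3.3, scipy 1.17.1 and matplotlib 3.10.9.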

Additional observations from a re-analysis of the deposited data

How the results depend on the processing

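No called gene of mitosis changed direction under any alternative. Among tested mitosis genes without a call, the sign changed without the third libraries of both empty-vector groups in 2 for AGEs against BSA, 7 for CTSD against AGEs (Aurka, Kif11, Kif4a, Tpx2, Prc1, Ect2 and Smc2) and 2 for CTSD against BSA, and the median of CTSD against AGEs also changed sign there. For named genes, 85 gene-by-setting results in AGEs against BSA kept their side of the threshold and 48 lost the call; the numbers were 120 and 12 for CTSD against AGEs, and 91 and 3 for CTSD against BSA. In AGEs against BSA, the 7 rises became 4 with no filter, 4 with the replicate block and 3 with 2 groups alone. They became 9 with median-of-ratios scaling and 8 with voom, and removing the length trend added Ccna2 and Foxm1 to the 7. Without the third libraries of both empty-vector groups there were 3 rises and 2 falls (Smc2 and Smc4). Leaving out 1 library gave 2 to 6 rises and 0 to 2 falls, and 760 to 1605 genes called in all against 1277. The median of the mitosis genes, 0.11, was 0.19 with a mean of at least 5 FPKM, 0.16 with median-of-ratios scaling, 0.17 with quantile normalization, 0.07 without the third libraries, 0.16 with the length trend removed and 0.08 to 0.12 with 1 library left out. In CTSD against AGEs the median of -0.06 was -0.11, -0.12, 0.0076 and -0.11 under median-of-ratios scaling, quantile normalization, loss of the third libraries and removal of the length trend, and -0.13 to 0.0076 with 1 library left out, which gave 3 to 4 rises, 2 to 4 falls and 2095 to 2524 genes called. In CTSD against BSA the 1 fall became 0 with a mean of at least 5 FPKM, where Lin9 leaves the test, 2 with voom, 2 without the third libraries and 1 to 3 with 1 library left out; the 4 rises became 7 with the length trend removed and 3 to 5 with 1 library left out; the median of 0.08 was 0.13 with a mean of at least 5 FPKM, 0.12 with quantile normalization and 0.028 to 0.11 with 1 library left out, with 2108 to 3090 genes called. The cause of these shifts was not tested.

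Same-numbered libraries correlated at 0.0798, -0.0346 and 0.074 for CTSD against AGEs and 0.0597, 0.0046 and 0.003 for CTSD against BSA. These lay below the 0.1 taken to show pairing, which does not show that the samples were unpaired. The replicate block gave 1213, 2581 and 2773 called genes in the 3 comparisons against 1277, 2617 and 2782; with CTSD against AGEs it ended the call of Incenp (adjusted p = 0.0664) and called Mad2l1 lower. With 3 libraries a group and few fragments for genes near 1 FPKM, differences smaller than the spread between libraries were not detectable.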
